A study of Mus musculus with 8 samples.

Results

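All 8 libraries of the series were set against each other by the set they belong to: 4 libraries of the Pogz set against 4 of the Adnp set. A set is a pair of mice injected with a hairpin virus together with the pair of GFP-injected mice that the sample titles name as its controls. Membership came from those titles, and 8 of 8 libraries entered. The question is which genes differ between the sets whatever virus was injected, because such a difference would enter any direct comparison of the hairpins. A term for hairpin against GFP was kept in the model for that reason.

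The tissue was prefrontal cortex, lysed whole, from C57BL6/J mice aged 6 to 8 weeks. Every mouse received an AAV9 vector. The 4 groups hold 2 libraries each. They are the Adnp-set GFP controls, the mice titled Adnp, the Pogz-set GFP controls and the mice titled Pogz. The titles name Adnp and Pogz, whereas the treatment label of both hairpin groups names ASH1L, so the hairpin groups are called here by their titles. The design text speaks of 3 knockdown mice and 2 control mice, against 2 libraries per group analysed here. The count column used for Pogz hairpin replicate 2 is headed POGZ3, whereas its sample title carries the number 2. In the hairpin libraries the set and the targeted gene cannot be told apart. In the GFP libraries the labels give both sets the same virus.

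Library totals ran from 27501722 counts in Pogz-set GFP replicate 1 to 69002749 in Pogz-set GFP replicate 2. Of 23393 gene symbols, 17415 were tested. The 45S ribosomal precursor Rn45s took 7.62% of the counts in Adnp hairpin replicate 1 and 0.134% to 0.740% in the other 7 libraries. On the first axis of a multidimensional scaling plot, which held 52.3% of the spread, Adnp-set GFP replicate 1 lay at -2.47 and Pogz hairpin replicate 2 at 2.15, with the other 6 between -0.658 and 0.804. Levels are CPM, that is counts relative to the library total, on library sizes scaled by edgeR's trimmed mean of M-values. Differences are log2 fold changes, Pogz set minus Adnp set, with their standard error (SE).

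The genes that separated the sets fall into a few families. The major histocompatibility complex, called H2 in mice, is a dense and polymorphic gene cluster. Its classical class I genes present peptides on nearly all cells, its class II genes on antigen-presenting cells, and its Q and T genes encode non-classical class I relatives. In the healthy brain these genes are expressed weakly by neurons and more strongly by microglia and vessel-associated cells. Wdfy1 encodes a FYVE-domain protein of endosomes that takes part in Toll-like receptor signalling. Nnt encodes the transhydrogenase of the inner mitochondrial membrane that makes NADPH. Both are among the genes described to differ between C57BL/6 substrains.

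Across all genes, 11 differed between the sets at an adjusted p under 0.05 (edgeR's quasi-likelihood test, Benjamini-Hochberg adjustment), which is 0.0632% of those tested. Of these, 8 were higher in the Pogz set (0.0459%) and 3 lower (0.0172%). Without the adjustment, 2145 genes (12.3%) had a p under 0.05. In each of the 11 the 4 libraries of one set all lay on one side of the 4 of the other, which was so for 6.04% of all tested genes (2.34% higher and 3.7% lower in the Pogz set). By position, 9 of the 11 were on chromosome 17. The plot of levels by library shows the gap in each.

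**Figure D1:**
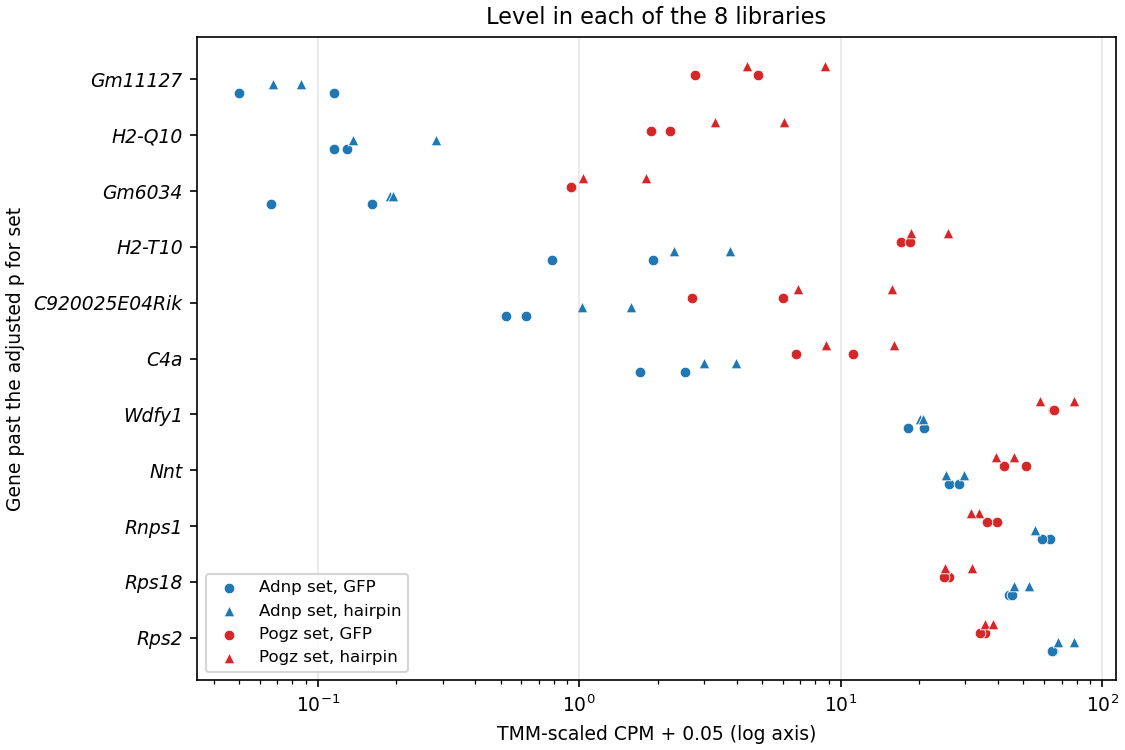
Level of each of the 11 genes past the adjusted p in each of the 8 libraries, as scaled CPM plus 0.05 on a log axis; blue is the Adnp set, red the Pogz set, circles are GFP and triangles hairpin libraries. Red and blue points do not overlap for any gene, and Rnps1, Rps18 and Rps2 are the 3 genes with red to the left.

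Promoter sequences show how H2-Q10, the H2 gene with the smallest p, differs in sequence from its classical relatives. They are the 250 bases before the RefSeq start of H2-Q10, H2-K1 and H2-D1 on chromosome 17 of GRCm38.p6, printed 5′ to 3′ on the strand of the gene. For H2-K1 the first of 2 RefSeq entries was taken. Its window lies inside the whole span of the gene (33996012-34000619), whereas the H2-Q10 and H2-D1 windows end just before their genes. Capitals mark 11 bases that follow a flank of 15 bases common to the 3 windows. In the classical genes these bases are the enhancer A element, to which NF-κB family factors bind.
H2-Q10 (plus strand, chr17:35469839-35470088): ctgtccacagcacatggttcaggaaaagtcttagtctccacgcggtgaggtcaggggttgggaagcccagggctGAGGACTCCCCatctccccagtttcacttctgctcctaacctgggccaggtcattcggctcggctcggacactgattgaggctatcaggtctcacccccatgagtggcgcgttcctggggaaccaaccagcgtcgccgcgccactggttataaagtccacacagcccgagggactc
H2-K1 (minus strand, chr17:34000348-34000597): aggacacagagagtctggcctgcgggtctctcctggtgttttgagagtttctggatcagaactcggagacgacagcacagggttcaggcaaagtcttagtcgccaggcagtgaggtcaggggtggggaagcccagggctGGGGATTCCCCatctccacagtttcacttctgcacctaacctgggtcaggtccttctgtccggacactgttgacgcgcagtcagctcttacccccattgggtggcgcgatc
H2-D1 (plus strand, chr17:35262844-35263093): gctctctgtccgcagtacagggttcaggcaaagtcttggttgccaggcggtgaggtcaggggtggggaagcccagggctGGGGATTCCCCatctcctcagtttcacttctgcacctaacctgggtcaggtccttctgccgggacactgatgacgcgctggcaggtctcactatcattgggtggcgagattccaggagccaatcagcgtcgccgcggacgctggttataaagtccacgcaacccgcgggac

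Relative to GGGGATTCCCC, counted from 1 at its 5′ end, the H2-Q10 element carried G2A and T6C. The letters GGGGATTCCCC, searched on both strands, stood in 0.0304% of 32851 mouse promoters of the same length. They were found in the H2-K1 and H2-D1 windows and not in that of H2-Q10. This is the reference sequence, not that of the mice sampled, and a match is a description of letters only. H2-K1 and H2-D1 were chosen as the classical relatives, after their values had been seen. Of the 11 genes, 5 had a promoter in the table used.

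H2-Q10 (17:35470089-35474563), a class I gene known mainly from liver, was close to the detection limit in the Adnp set and at a few CPM in the Pogz set. In the Adnp set it was at 0.0654 and 0.0796 CPM in the GFP libraries and at 0.0869 and 0.234 CPM in the hairpin libraries. In the Pogz set it was at 1.84 and 2.17 CPM in the GFP libraries and at 3.25 and 6.00 CPM in the hairpin libraries. The lowest Pogz-set library was thus above the highest of the Adnp set, and the hairpin libraries were the higher ones in both. The difference was 4.80 (SE 0.36) on the log2 scale, with an adjusted p of 0.000557 by edgeR's quasi-likelihood test. It was 4.75 within the GFP libraries and 4.83 within the hairpin libraries.

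Gm11127 (17:36055816-36058371), annotated by RefSeq as protein-coding, had 7 counts in the 4 Adnp-set libraries together and 928 in the 4 of the Pogz set. It was at 2.72 and 4.78 CPM in the Pogz-set GFP libraries and at 4.33 and 8.64 CPM in the hairpin libraries, against 0 to 0.0654 CPM in the Adnp set. The gene was therefore near 0 in every Adnp-set library and present in every Pogz-set library. The ratio of the summed scaled counts was 175, with a 95% exact binomial interval of 84.6 to 437 that covers counting error only. The fitted log2 fold change of 7.29 depends on the prior count and is no bound (adjusted p = 0.000557, edgeR's quasi-likelihood test).

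Gm6034 (17:36042961-36058645) spans the place of Gm11127, so reads of one could be counted for the other. It was at 0.0164 to 0.144 CPM in the Adnp set and at 0.881 to 1.75 CPM in the Pogz set, with a difference of 3.46 (SE 0.46) and an adjusted p of 0.0299 by edgeR's quasi-likelihood test. The highest Pogz-set value was that of Pogz hairpin replicate 2.

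The class I pseudogene H2-T10 (17:36115871-36121444) was detected in all 8 libraries and was higher in the Pogz set. It was at 0.736 and 1.86 CPM in the Adnp-set GFP libraries and at 2.26 and 3.71 CPM in the Adnp-set hairpin libraries. In the Pogz set the values were 16.9 and 18.3 CPM with GFP and 18.6 and 25.6 CPM with the hairpin. Every Pogz-set value was above every Adnp-set value. The difference was 3.30 (SE 0.33), adjusted p = 0.0185 by edgeR's quasi-likelihood test.

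C920025E04Rik (17:36109030-36111723), which RefSeq lists as H2-T-ps, lies just before H2-T10. Its Adnp-set values were 0.474 to 1.53 CPM and its Pogz-set values 2.65 to 15.7 CPM. Within each set the hairpin libraries were the higher ones, and the sets did not overlap. The difference was 3.12 (SE 0.35), adjusted p = 0.0185 by edgeR's quasi-likelihood test.

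C4a (17:34809092-34823460), which RefSeq lists as a transcribed pseudogene, is a close copy of the complement gene C4b. Complement component 4 is cleaved to tag surfaces for removal. C4a was at 1.65 and 2.48 CPM in the Adnp-set GFP libraries and at 2.96 and 3.92 CPM in the Adnp-set hairpin libraries. In the Pogz set it was at 6.72 and 11.1 CPM with GFP and at 8.73 and 15.9 CPM with the hairpin. Every Pogz-set value was above every Adnp-set value, and the difference was 1.98 (SE 0.25), adjusted p = 0.0299 by edgeR's quasi-likelihood test. The neighbouring C4b was at 25.5 to 268 CPM in the Adnp set and 147 to 513 CPM in the Pogz set, which overlap. Its difference was 1.26 (SE 0.52) and did not pass, with an adjusted p of 0.413 by edgeR's quasi-likelihood test. How reads that fit several copies were counted is not given in the sources used here, so the split between C4a and C4b, and among class I genes, is uncertain. The sum of C4a and C4b overlapped between the sets, at 27.1 to 271 CPM against 154 to 529 CPM.

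The classical class I genes overlapped between the sets. H2-K1 was at 24.4, 129, 226 and 288 CPM in the Adnp set (GFP replicates 1 and 2, then hairpin replicates 1 and 2) and at 130, 264, 291 and 645 CPM in the Pogz set in the same order. Its difference was 1.11 (SE 0.60) and that of H2-D1 was 1.13 (SE 0.46). Neither passed. Of 28 tested genes with an H2 symbol, 2 passed (H2-Q10 and H2-T10), against 0.0632% of all tested genes. There were 6 without overlap between the sets, all of them higher in the Pogz set, against 2.34% of all tested genes, and the median difference was 1.04, against -0.000662 over all tested genes. Blood leukocyte markers had a median of 1.71 with 0 of 19 called by edgeR's quasi-likelihood test, and their part in the H2 values was not tested. H2-Ob, which encodes a chain of the class II modulator H2-O, was at 0.458 to 2.77 CPM in the Adnp set and 5.66 to 12.5 CPM in the Pogz set. It missed the threshold with a difference of 2.51 and an adjusted p of 0.0703 by edgeR's quasi-likelihood test. H2-T3 had 2 counts over the 4 Adnp-set libraries and 73 over the Pogz set, a ratio of 48.2 with an interval of 12.9 to 405 for counting error only, and an adjusted p of 0.076 by the same edgeR test.

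The 3 genes that fell in the Pogz set encode proteins of translation and RNA processing, and all are on chromosome 17. Rps2 (17:24718121-24721927), a protein of the small ribosomal subunit, was at 64.9 and 64.0 CPM in the Adnp-set GFP libraries and at 77.8 and 67.6 CPM in the Adnp-set hairpin libraries. In the Pogz set it was at 35.7 and 34.1 CPM with GFP and at 35.7 and 38.2 CPM with the hairpin. The GFP and hairpin values of a set lay closer to each other than to those of the other set. Rps2 fell by 0.93 on the log2 scale (SE 0.074), adjusted p = 0.000557 by edgeR's quasi-likelihood test.

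Rps18 (17:33951998-33955665), also of the small subunit, was at 43.8 to 52.5 CPM in the Adnp set and 24.8 to 31.6 CPM in the Pogz set. It fell by 0.81 (SE 0.089), adjusted p = 0.00851 by edgeR's quasi-likelihood test. Rps2 and Rps18 stood at the low end of their family. Of 78 tested ribosomal protein genes, 55 were above 0 and 23 below, and the median was 0.0663. The next lowest after these 2, Rpl34, was at -0.57. Other ribosomal protein genes on the same chromosome did not pass: Rpl10a was at 0.30, Rps28 at 0.16, Rps10 at 0.06, Rpl36 at -0.15 and Rpl3l, at under 1 CPM, at -0.36. RefSeq lists 12 copies of Rps2 and 6 of Rps18 named as pseudogenes, so reads of these genes may be shared with near-identical copies.

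Rnps1 (17:24414646-24425898), an RNA-binding protein of the exon junction complex, was at 62.9 and 58.7 CPM in the Adnp-set GFP libraries and 55.2 and 55.3 CPM with the hairpin. The Pogz-set values were 39.4 and 36.2 CPM with GFP and 33.8 and 31.4 CPM with the hairpin. It fell by 0.72 (SE 0.071), adjusted p = 0.00318 by edgeR's quasi-likelihood test. RefSeq lists 1 copy of Rnps1 named as a pseudogene, so its reads may be shared with that copy. Of the 6 nearest tested genes none passed. Their values ran from -0.96 for Abca17 to 0.82 for D330041H03Rik. Of the 6, 3 did not overlap between the sets, against 6.04% of all tested genes. Abca3 and Eci1, on either side of Rnps1, were at -0.06 and 0.17.

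The called genes of chromosome 17 ran from Rnps1 to H2-T10, over 11.71 Mb that holds 347 tested genes. In that span, 35 genes (10.1%) had an unadjusted p under 0.01, of which 18 were higher and 17 lower. Elsewhere on the chromosome this was so for 15 of 510 genes (2.94%), and on the other chromosomes for 467 of 16479 (2.83%). Without the genes named with an H2 symbol, 29 of 324 genes of the span (8.95%) had such a p. Those 324 include C920025E04Rik, which RefSeq lists as H2-T-ps. They also include Gm11127 and Gm6034, which lie between H2-T23 and H2-Bl. The share without all genes of the H2 cluster was not computed. The span was set by the called genes themselves, so these shares are a description. Of all placed genes, 4.94% were on chromosome 17. The bar plot by chromosome gives the share with an unadjusted p under 0.01 for each one. The plot along chromosome 17 shows high called values crowded at the H2 genes. Low called values lie on both sides of the 9.23 Mb between Rps2 and Rps18, where 206 genes were tested and none was called. Inside that stretch, from 25 to 30 Mb, 8 of 119 genes (6.72%) had an unadjusted p under 0.01, 1 higher and 7 lower.

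**Figure D2:**
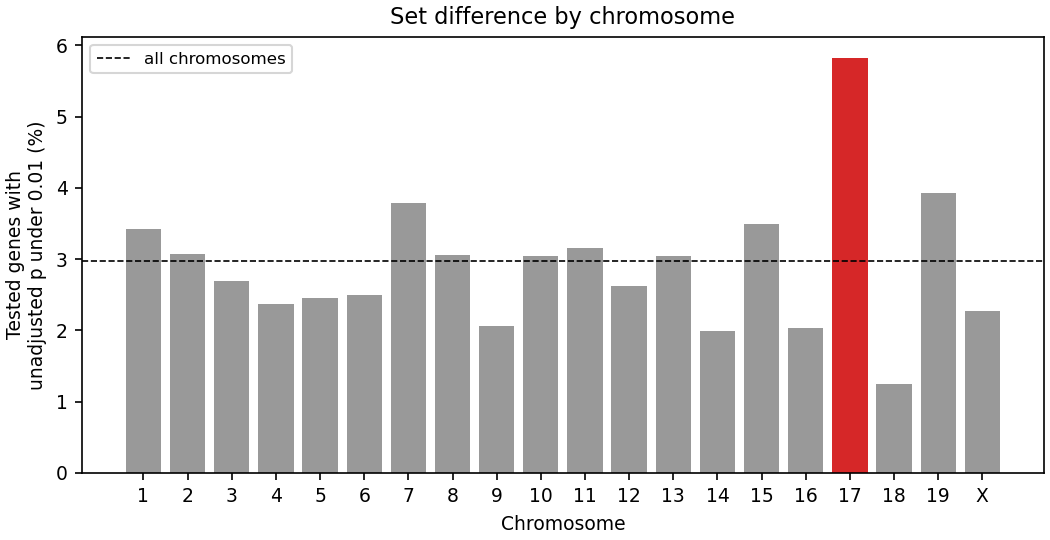
Percent of tested genes of each chromosome with an unadjusted p under 0.01 for the set difference; the dashed line is the share over all chromosomes, 2.98%. Chromosome 17, in red, is the highest bar.

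**Figure D3:**
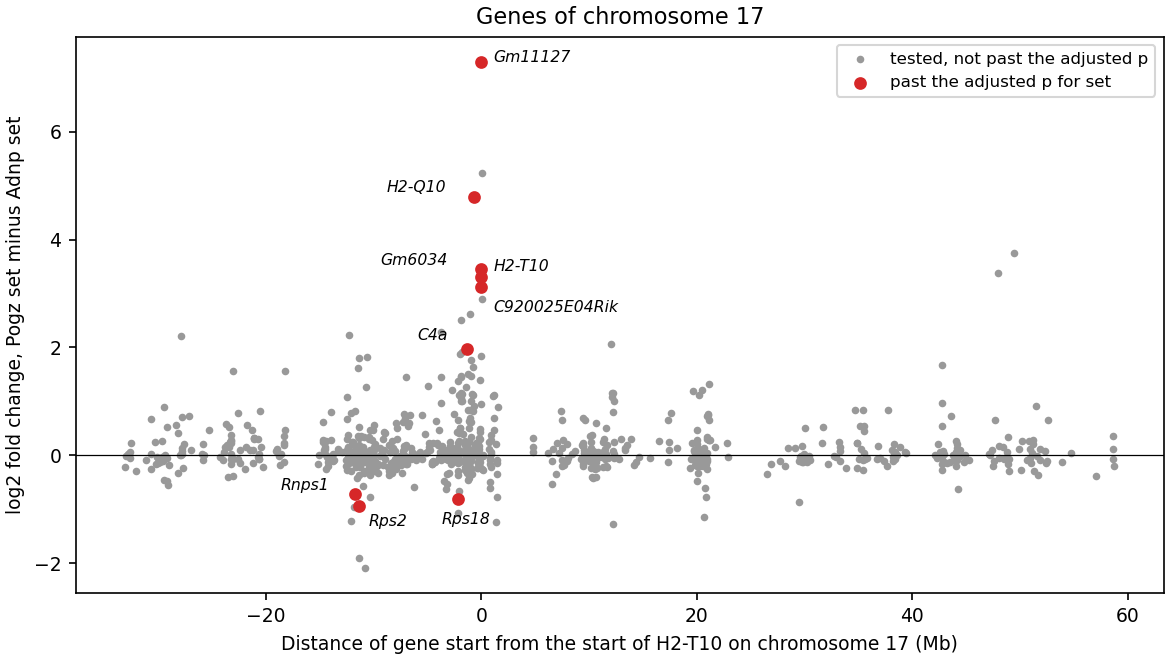
Log2 fold change (Pogz set minus Adnp set) of each tested gene of chromosome 17 against the distance in Mb of its start from the start of H2-T10. The 9 genes past the adjusted p, in red, lie at or to the left of 0, and the 6 with positive values are near 0 on the distance axis.

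Both called genes outside chromosome 17 belong to the list of genes described to differ between C57BL/6 substrains. Of its 9 tested members 2 passed, against 0.0632% of all tested genes. The list was chosen with earlier results of these data known, so this is a description. Wdfy1 (1:79702262-79776143) gave the smallest p of all genes. In the Adnp set it was at 20.8 and 18.1 CPM with GFP and at 20.03 and 20.54 CPM with the hairpin. In the Pogz set it was at 64.6 and 65.6 CPM with GFP and at 57.6 and 78.1 CPM with the hairpin. All Pogz-set values were above all Adnp-set values. The mean was 19.9 ± 1.22 CPM (SD, n = 4) in the Adnp set and 66.5 ± 8.49 CPM (SD, n = 4) in the Pogz set. The difference was 1.74 (SE 0.10), 3.34-fold in the GFP arm and 3.34-fold in the hairpin arm, adjusted p = 9.2e-05 by edgeR's quasi-likelihood test.

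None of the 6 tested neighbours of Wdfy1 passed. Their values ran from -0.68 for Fam124b to 0.28 for Ap1s3. Ap1s3 was the only one of the 6 whose sets did not overlap, against 6.04% of all tested genes. Mrpl44, whose annotated place overlaps its end, was at 0.02, Serpine2 at -0.02 and Scg2 at 0.08. Among its relatives, Wdfy2 was at 0.07 and Wdfy3 at -0.09. Wdfy4 was at 0.91 with overlapping sets. Of 14 tested endosomal FYVE and Toll-like receptor trafficking genes, Wdfy1 alone passed, against 0.0632% of all tested genes. Of the 14, 3 were higher without overlap, Wdfy1 included, against 2.34% of all tested genes. Zfyve26, at 0.33, and Tlr3, at 0.40, had unadjusted p under 0.05 and did not pass.

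Nnt (13:119335527-119409257) was at 25.95 and 28.3 CPM in the Adnp-set GFP libraries and at 29.6 and 25.3 CPM in the hairpin libraries. In the Pogz set it was at 42.0 and 51.0 CPM with GFP and at 45.9 and 39.2 CPM with the hairpin. All 4 Pogz-set libraries were above all 4 of the Adnp set. The difference was 0.71 (SE 0.097), adjusted p = 0.0347 by edgeR's quasi-likelihood test, the largest adjusted p among the called genes. None of its 6 tested neighbours passed. Paip1, the nearest, was at -0.07. The gene 3110070M22Rik, at -0.81, was the only one of the 6 whose sets did not overlap, against 6.04% of all tested genes. Of 18 mitochondrial NADPH and peroxide handling genes only Nnt passed, against 0.0632% of all tested genes. Prdx3 was at 0.21 and Gsr at 0.16. Of the 18, 2 were higher without overlap, Nnt included, against 2.34% of all tested genes.

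The other 7 tested genes of the substrain list did not pass, and their sets overlapped. Gabra2 was at 0.23, Crb1 at 0.55, Entpd4 at 0.02, Nlrp12 at -0.003, Ide at -0.06, Cyfip2 at -0.15 and Fgfbp3 at -0.41. Gabra2, a GABA receptor subunit, was at 66.5 CPM in Pogz-set GFP replicate 1 and at 31.0 to 40.5 CPM in the other 7 libraries. The labels give the strain C57BL6/J for all 8 libraries, and counts per gene do not show which exons were read. Sex did not separate the sets: the Y-linked genes Ddx3y, Eif2s3y, Kdm5d and Uty were present in all 8 libraries, Xist was under 1 CPM in all 8, and none of 9 sex-linked genes passed.

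The comparison was then made in each arm alone, in a model with 1 mean per group. Within the GFP libraries, 1 gene passed (Wdfy1, 0.00574% of those tested), and within the hairpin libraries 4 passed (Wdfy1, Gm11127, H2-Q10 and Rps2, 0.023%). All 11 genes had the same direction in both arms. They were chosen in a fit on both arms together, which favours such agreement. A test of the difference between the arms called 0 genes by edgeR's quasi-likelihood test, with 612 at an unadjusted p under 0.05 and a smallest adjusted p of 0.978. That is 0% and 3.51% of those tested. DESeq2 called 2. With 2 libraries per group this does not show that the arms are alike.

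The arms share no library, though they share the estimate of spread. Of the 50 genes with the smallest p in the GFP arm, 44 had the same direction in the hairpin arm and 24 had an unadjusted p under 0.05 there, against 7.68% of all genes in that arm. Of the 50 with the smallest p in the hairpin arm, 46 had the same direction in the GFP arm and 23 had such a p, against 7.35% of all genes. Chromosome 17 held 14 of the first 50 and 11 of the other 50, against 4.94% of all placed genes. Over all 17415 genes, 59.5% had the same direction, and the log2 fold changes correlated across genes with a Pearson r of 0.402 and a Spearman rho of 0.28. Genes are not independent replicates, so these are descriptions. The scatter of the arms shows the called genes, which were chosen on both arms together, near the diagonal.

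**Figure D4:**
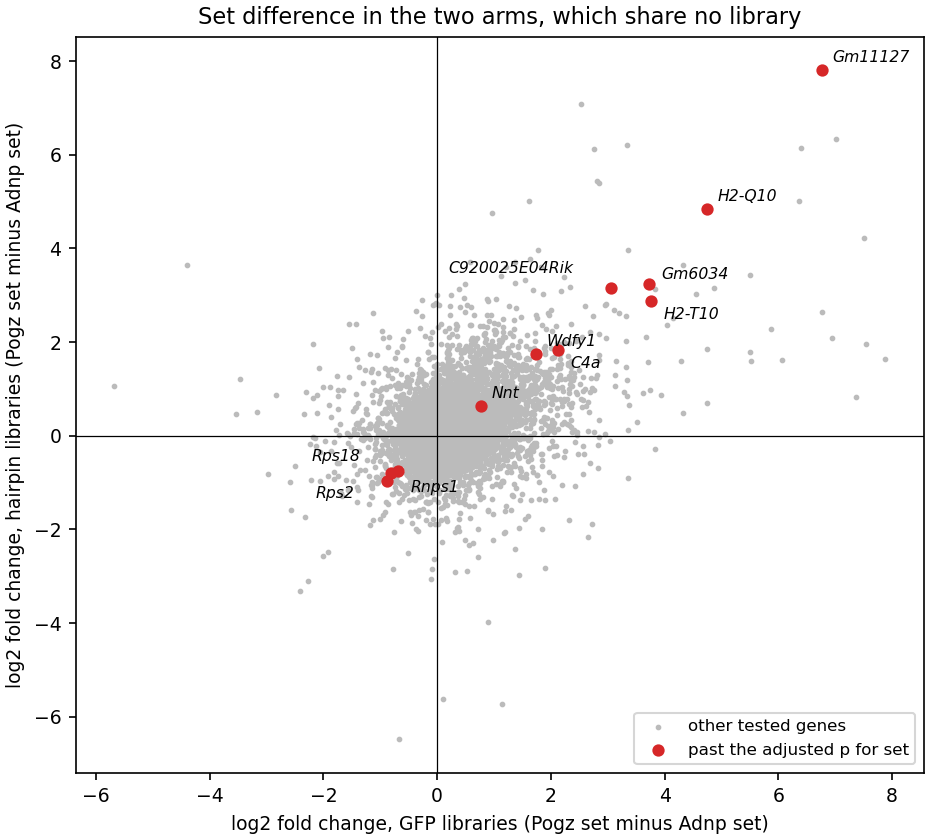
Log2 fold change (Pogz set minus Adnp set) of each tested gene in the GFP libraries (horizontal axis) and in the hairpin libraries (vertical axis); red points are the 11 genes past the adjusted p in all 8 libraries. Gm11127 and H2-Q10 lie at the upper right and Rps2, Rps18 and Rnps1 at the lower left.

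Immune gene lists had medians above 0, with wide spread between libraries and no member past the adjusted p. Blood leukocyte markers had a median difference of 1.71. All 19 tested members were above 0, 0 passed by edgeR's quasi-likelihood test and 11 had an unadjusted p under 0.05, all higher, as were 6.34% of all genes. Their summed level was 13.5 to 114 CPM in the Adnp set and 70.8 to 292 CPM in the Pogz set, which overlap. In bulk tissue, more cells of a type and more RNA per cell cannot be told apart.

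The B cell markers were the clearest among them. Cd79a, a chain of the B cell receptor complex, was at 0.0981, 0.446, 0.469 and 0.342 CPM in the Adnp set and at 1.73, 2.20, 1.73 and 0.943 CPM in the Pogz set, in the order GFP then hairpin. The lowest Pogz-set library was Pogz hairpin replicate 2, which was the highest of the 8 for Ly6c2. The difference was 2.28 (SE 0.45), which did not pass (adjusted p = 0.201, edgeR's quasi-likelihood test). Ms4a1, Cd79b and the monocyte marker Ly6c2 also did not overlap between the sets, with differences of 2.76, 1.995 and 2.87, and did not pass. Of the 19 leukocyte markers, 5 were higher in the Pogz set without overlap, against 2.34% of all tested genes. The B cell markers named here were at low levels, under 5 CPM in all 8 libraries.

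Interferon-stimulated genes had a median of 1.24, with 34 of 34 above 0, 0 past the threshold by edgeR's quasi-likelihood test and 8 at an unadjusted p under 0.05. These 8 were all higher, as were 6.34% of all genes at that p. None of the 34 was free of overlap, against 6.04% of all tested genes. The median was 0.57 in the GFP arm and 1.86 in the hairpin arm, and the summed level was 263 to 1162 CPM in the Adnp set and 629 to 4805 CPM in the Pogz set. Oas2, an antiviral oligoadenylate synthetase, was at 0.834 to 4.61 CPM in the Adnp set, at 2.94 and 1.86 CPM in the Pogz-set GFP libraries and at 6.41 and 19.8 CPM in the Pogz hairpin libraries. Antigen presentation genes had a median of 1.06, with 17 of 17 above 0, 0 called and 5 at an unadjusted p under 0.05. These 5 were all higher, against the same 6.34%. B2m, the light chain of class I molecules, was at 80.9 CPM in Adnp-set GFP replicate 1 and 995 CPM in Pogz hairpin replicate 2, with the other 6 between 217 and 457 CPM.

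Those are the libraries at the ends of the first scaling axis. Without them, an alternative chosen after seeing the data, the leukocyte median was 0.88, the interferon median 0.46 and the antigen presentation median 0.39. In the same alternative 9 genes passed, 6 of them among the 11, and Rnps1, C4a, C920025E04Rik, Gm6034 and Nnt did not pass.

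Proliferation genes had a median of 0.64, with 17 of 17 above 0 and 11 at an unadjusted p under 0.05, and 0 passed by edgeR's quasi-likelihood test. These 11 were all higher, as were 6.34% of all genes at that p. Cdk1, the mitotic kinase, had a difference of 1.47 and Mki67 of 1.30, each with overlapping sets. Reactive astrocyte genes had a median of 0.47. Microglia markers had a median of 0.27, from 0.68 in the GFP arm and -0.05 in the hairpin arm. Of 22 tested microglia markers, 19 were above 0 and 3 below. Fcrls, among the 3, was at 29.1 to 66.1 CPM in the Adnp set and 22.1 to 24.8 CPM in the Pogz set. It was the only 1 of the 22 without overlap, against 3.7% of all tested genes that were lower without overlap. Tmem119 was at 21.7 to 42.5 and 39.5 to 58.5 CPM in the same order, with overlap. Neither passed.

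Presynaptic vesicle and release genes had a median of -0.25, with 22 of 22 below 0, 0 called by edgeR's quasi-likelihood test, 11 at an unadjusted p under 0.05 (5.98% of all genes were lower at that p) and 7 without overlap (3.7% of all genes were lower without overlap). Snap25, the SNARE protein of vesicle fusion, was at 3477, 3491, 3292 and 3192 CPM in the Adnp set and at 2867, 2705, 2758 and 2433 CPM in the Pogz set. All 4 Pogz-set values were below those of the Adnp set. The difference was -0.32 (SE 0.079), adjusted p = 0.313 by edgeR's quasi-likelihood test. Excitatory neuron markers had a median of -0.27 with 4 of 12 without overlap, against the same 3.7%, among them Slc17a7, the vesicular glutamate transporter, at -0.30. Glutamate receptor and scaffold genes had a median of -0.19, and the scaffold genes Dlgap3 and Shank3 were at -0.59 and -0.48. The part of the leukocyte marker levels in these values was not tested.

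Striatal markers had a median of 0.34, from 0.01 in the GFP arm and 0.62 in the hairpin arm. Of 13 tested, 0 were called by edgeR's quasi-likelihood test. At an unadjusted p under 0.05, 5 were higher and 1 lower, against 6.34% and 5.98% of all genes. Drd2, the dopamine receptor of indirect-pathway neurons, was at 0.425 to 0.732 CPM in the Adnp set and at 0.884, 0.952, 1.73 and 4.06 CPM in the Pogz set, with the highest value in Pogz hairpin replicate 2. Whether tissue taken beside the cortex moved with these values was not tested. For 19 genes of cholesterol synthesis and the LDL receptor, all below 0, the median was -0.14. Oxidative phosphorylation subunits, clock genes, reference genes and clustered protocadherins had medians between -0.08 and 0, as the plot of list medians shows.

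**Figure D5:**
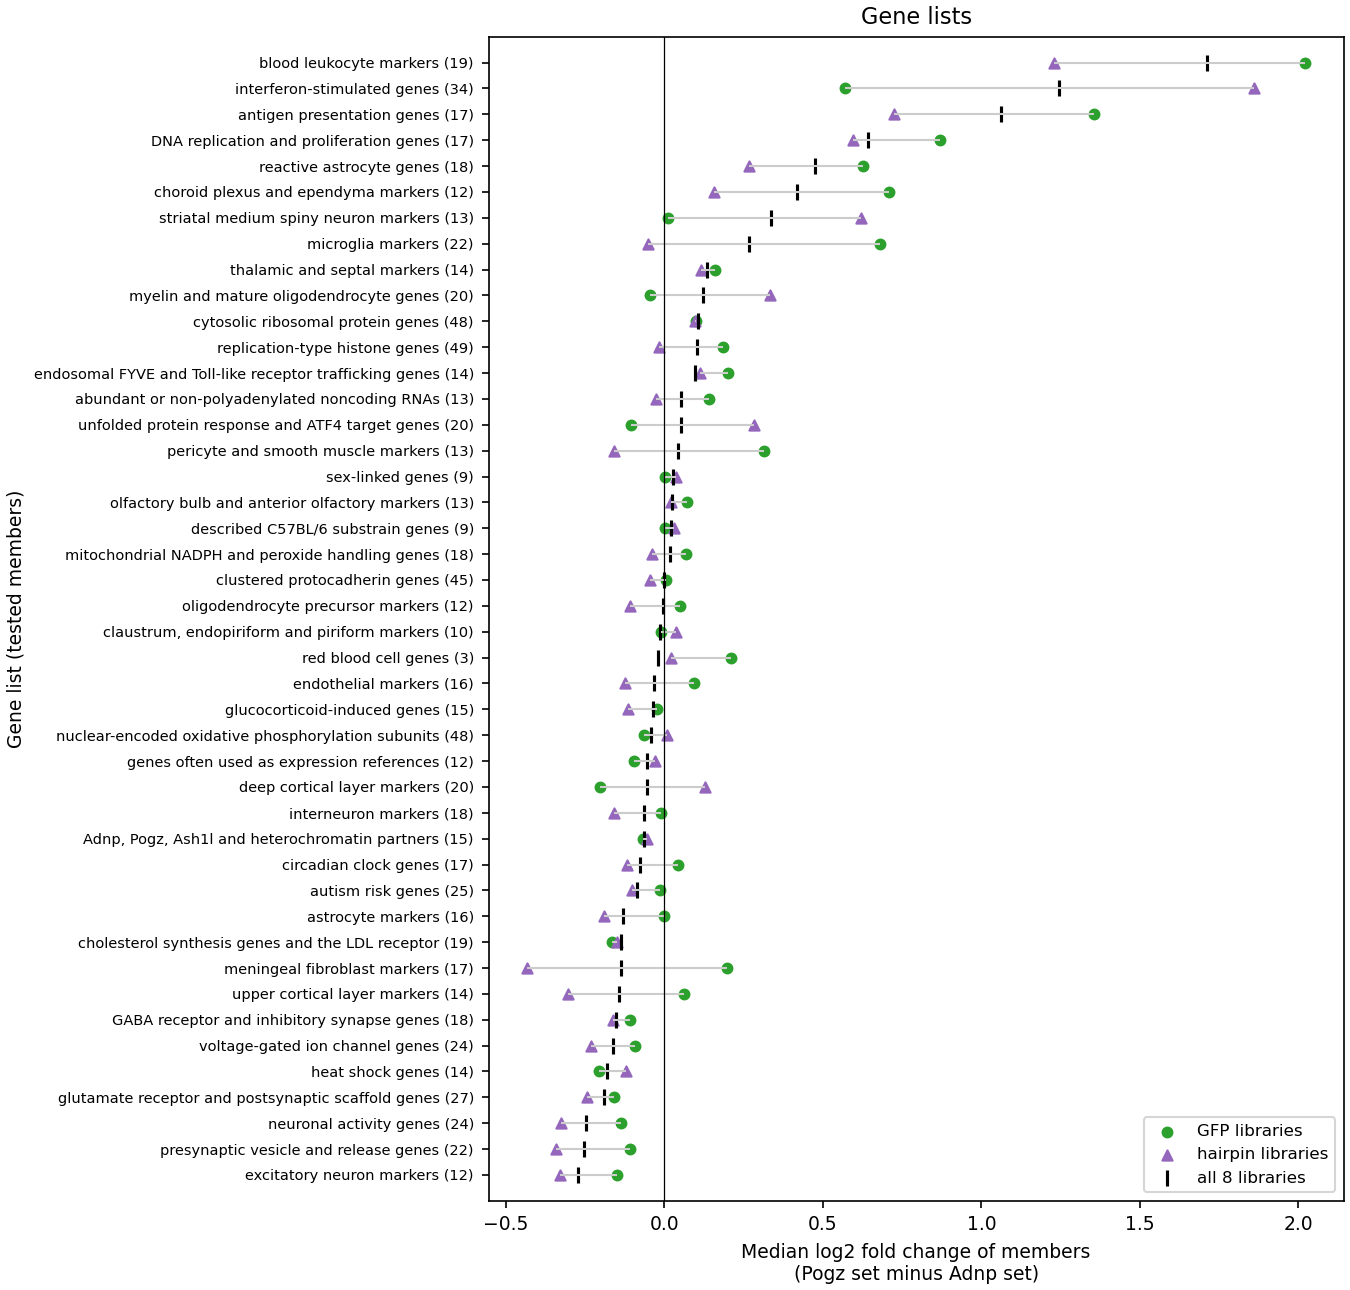
Median log2 fold change (Pogz set minus Adnp set) of the tested members of each gene list, with the number of members in brackets; circles are the GFP libraries, triangles the hairpin libraries and bars all 8. Leukocyte, interferon and antigen presentation lists lie at the top, at 1.71, 1.24 and 1.06, and excitatory neuron, presynaptic and neuronal activity lists at the bottom.

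The targeted genes overlapped between the sets. Adnp was at 0.10 and Pogz at -0.00018. Ash1l, a histone methyltransferase gene, was at -0.22 with an unadjusted p under 0.05 and did not pass. Of 15 tested members of the list of Adnp, Pogz, Ash1l and heterochromatin partners, 0 passed by edgeR's quasi-likelihood test and 2 had an unadjusted p under 0.05, both lower. Over all genes, 5.98% were lower at that p.

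Leaving out each library in turn, Wdfy1, H2-Q10, Gm11127, Rps2 and Rnps1 passed in 8 of 8 fits. Rps18 passed in 4, H2-T10 and C920025E04Rik in 3, Gm6034 in 2, and C4a and Nnt in 1. The direction of the 11 genes was the same in every alternative run. The number called went from 11 to 5 without Adnp-set GFP replicate 2, without Adnp hairpin replicate 1 or without Pogz-set GFP replicate 2, and to 22 without Pogz hairpin replicate 1.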

How the data were processed

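RNA was made into ribosome-depleted, stranded libraries, per the labels' protocols. The deposited files hold whole-number read counts per gene symbol, which the authors did not normalise, 1 file per library. The submitters' processing notes name STAR, featureCounts, DESeq2 and mm10, whereas the protocol text names Cutadapt and TopHat2; no source used here gives their versions, the strand option or the handling of multi-mapping reads. In each file 25 identifiers turned into dates (0.306% to 0.337% of counts) and 2 blank lines were left out.

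The tests were run with edgeR 4.0.16 under R 4.3.3: filterByExpr with a minimum count of 10, TMM scaling, robust quasi-likelihood fits, and Benjamini-Hochberg adjustment over 17415 genes at 0.05. The model held set and hairpin against GFP (5 residual degrees of freedom, common biological coefficient of variation 0.168). A model with 1 mean per group gave the arms and their difference. SE is the log2 fold change divided by the root of F. DESeq2 1.42.0 and limma 3.58.1 served as alternatives, with other scalings, filters and left-out libraries. On simulated data the step recovered 18% of genes changed by 0.5 on the log2 scale, 88% at 1 and 100% at 2 and 4, with 6 false among 158 calls over 17193 genes. The simulation gave every gene the common coefficient of variation, 0.168, and no hairpin effect or outlying library. Spread differed between genes in the real data, where H2-Ob, at 2.51, did not pass. The simulated shares therefore need not hold there. Positions, promoters and synonyms came from RefSeq (GRCm38.p6): 16147 genes matched by symbol, 1190 by synonym, and 78 did not. The samples count as biological replicates by the labels. The p-values weigh a difference against the spread between libraries of the same set. With a single set of each kind, how much sets vary among themselves was not measured.

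The named genes were Adnp, Pogz and Ash1l, all genes past the threshold, the substrain and sex-linked lists, up to 4 members of each other list by p, and up to 10 further genes per direction. Neighbouring and related genes were added after their values were seen. The members and lists were chosen with earlier results of these data known. The lists were described by counts and medians and not tested.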

Additional observations from a re-analysis of the deposited data

Results flagged for a closer look

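Of 26 groups of 4 libraries examined for a single library far from the others (gap over range above Dixon's critical value for 4 values), 4 stood out, where chance gives about 1 in 20. Gm6034 was at 1.755 CPM in Pogz hairpin replicate 2 and at 0.8812 to 0.9826 CPM in the other 3 Pogz-set libraries. H2-Q10 was at 0.234 CPM in Adnp hairpin replicate 2 and at 0.0654 to 0.08693 CPM in the other 3 of the Adnp set. Rps18 was at 31.64 CPM in Pogz hairpin replicate 2 and at 24.82 to 25.82 CPM in the other 3 of the Pogz set. Each of these values was still on its own set's side. Rn45s took 7.62% of counts in Adnp hairpin replicate 1 and 0.218% to 0.74% in the other 3 of the Adnp set; without Rn45s the number of called genes was 11.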

How the results depend on the processing

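The set difference called 11 genes. It called 258 with DESeq2 (192 higher, 66 lower, 29 on chromosome 17), 6 with limma-voom (3 and 3), 6 at an adjusted p of 0.01, 7 with no term for hairpin against GFP, 1 in the 4 GFP libraries fitted alone and 0 in the 4 hairpin libraries fitted alone (edgeR, 903 at an unadjusted p under 0.05). DESeq2 kept all 11, and the cause of its larger count was not tested. Other scalings and filters gave 10 to 12. Leaving out 1 library gave 5 to 22. The GFP arm called 1 gene, and 73 with DESeq2, 6 with no low-count filter, 0 at 0.01, 6 at 0.10, and 0 to 6 without 1 library. The hairpin arm called 4, and 70 with DESeq2, 1 with limma-voom, 0 at 0.01, and 0 to 17 without 1 library. The difference of the arms called 0, and 2 with DESeq2 and 0 to 4 without 1 library. The log CPM difference of replicate 1 minus replicate 2 was taken in each group and correlated across genes between groups. These correlations were -0.0802 to 0.313, not all above 0.1, so the numbers are not taken as pairs. With the replicate number as a block, the set difference called 123 genes (117 higher, 6 lower, all 11 kept), the GFP arm 18, the hairpin arm 25 and the difference of the arms 0. A library with 1 mate left out is assumed to vary like the others. At the shallowest library 1 count is 0.0354 CPM, so low genes such as H2-T3 are limited by depth.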
